A study of Mus musculus with 2 samples.

Results

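The genes of mitochondrial protein import and matrix folding were examined in heart RNA of mice that lack the Mediator subunit Med1 in cardiomyocytes. They were taken by symbol: 22 symbols that begin with Timm or Tomm and a number, and 16 further genes listed by name, which gave 38 of the 22882 gene symbols in the files. The control pool held heart RNA of 5 Med1fl/fl mice, whose Med1 alleles are flanked by loxP sites, and the other pool that of 5 csMed1-/- mice, which carry the same floxed alleles and in addition the α-MyHC-Cre transgene. All mice were on a C57BL6/J background, of mixed sex, 23 days old and untreated, and 1 library was sequenced from each pool. Cre under the α-myosin heavy chain promoter acts in cardiomyocytes, so other cells of the heart keep Med1, and pooling leaves no measure of the spread between mice.

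Nearly all mitochondrial proteins are made in the cytosol and enter the organelle through translocases. The TOM complex of the outer membrane receives precursors, SAM inserts barrel-shaped outer membrane proteins, and small Tim chaperones of the intermembrane space escort hydrophobic precursors. The TIM23 channel of the inner membrane passes precursors with a cleavable presequence to the matrix, where a motor built around mitochondrial Hsp70 pulls them in, peptidases remove the presequence and the Hsp60 and Hsp10 chaperonin folds the product. Cardiomyocytes are rich in mitochondria and depend on this import for their respiratory enzymes.

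Values are FPKM, fragments scaled to transcript length and to library size, so levels of different genes can be set side by side per length. The measure of library size behind the deposited values is not stated. The ratio is csMed1-/- over control, given on the log2 scale, and the ratio of a gene was used (the gene is called tested) when neither library listed it at 0 and the higher of its values reached 1 FPKM. There are no replicates, so no ratio has an error and none was tested against the variation between mice. Med1 itself stood at 3.38 FPKM in the control pool against 0.412 FPKM in the csMed1-/- pool (log2 ratio -3.04). If that measure was the number of mapped fragments, steps among the lowest values put the csMed1-/- library at about 1.39 times the control depth, and the absolute number of reads is unknown.

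The matrix-side motor and the chaperonin were the roles with the lowest median ratios. Roles were set with earlier results of these data known, and the chaperonin is only 2 genes, whose values shared sequence makes uncertain. Most genes of the intermembrane space and all 3 peptidases lay within 2-fold, and the subunits of the outer membrane entry gate went different ways. Of the 38 genes, 35 passed the filter on low values. Past 2-fold, 10 of these were lower in csMed1-/- heart and 1 was higher, 11 in all, and 24 lay within 2-fold. Among all 10489 genes tested, 18.0% were lower and 13.6% were higher past 2-fold, 31.5% in all. The 10 lower genes are 28.6% of the import genes tested and the single higher gene is 2.86%. Without a threshold, 29 of the 35 were lower, against 53.2% of all genes tested, and 7 of those 29 (Gfer, Grpel1, Pitrm1, Pmpca, Timm8b, Tomm22 and Tomm70a) change sign under another scaling or centring. The median log2 ratio was -0.35 over the import genes and -0.07 over all genes tested. Summed over the 38 genes, FPKM went from 2997 in control to 2161 in csMed1-/- heart, which is 0.384% and 0.302% of all FPKM in the library. In whole-heart RNA, fewer cells of a type and less RNA per cell cannot be told apart.

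**Figure D1:**
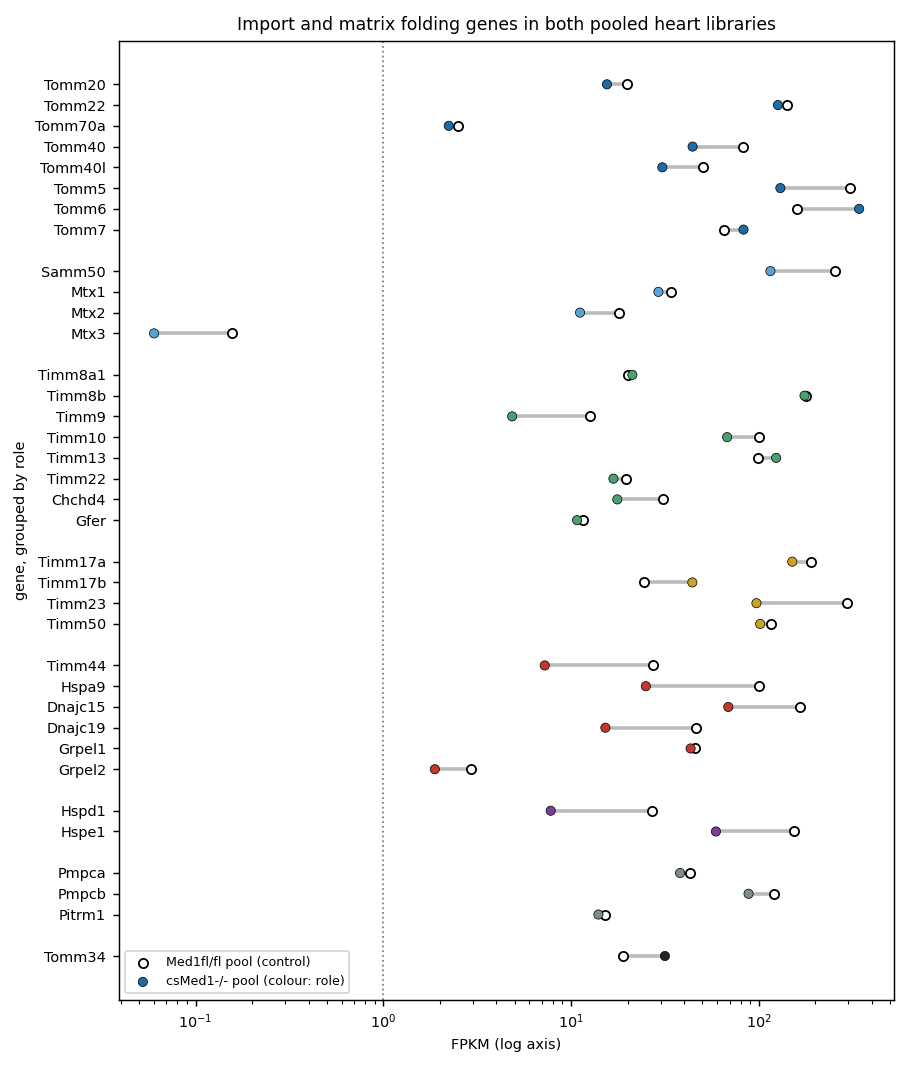
FPKM of the 36 import and folding genes above 0 in both pooled libraries (log axis; open circles Med1fl/fl, filled circles csMed1-/-, coloured by role; dotted line at 1 FPKM). The csMed1-/- circle lies to the left of the open circle for every motor and chaperonin gene, by little for Grpel1, whose sign changes under rescaling or centring, whereas Tomm6, Tomm7, Timm8a1, Timm13, Timm17b and Tomm34 have it to the right.

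The 3 genes not tested stood at or near 0. Tomm20l, a relative of the receptor Tomm20, was listed at 0 in both libraries. Timm8a2, an autosomal relative of Timm8a1, was listed at 0 in control and at 0.0371 FPKM in csMed1-/- heart. Mtx3, a metaxin, had 0.157 and 0.0602 FPKM. At such values no direction can be read for any of them.

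In the TOM complex the subunits went different ways. Of its 8 tested genes, 1 was lower past 2-fold, 1 higher, and 6 lay within it, with a median log2 ratio of -0.26. Over all genes tested, 18.0% were lower and 13.6% higher past 2-fold. Both genes past 2-fold encode small subunits that sit beside the channel, and with ratios centred by GC content, an alternative chosen after seeing the data, both were within 2-fold (Tomm5 -0.88, Tomm6 0.91). Tomm5 stood at 304 FPKM in the control pool against 130 FPKM in the csMed1-/- pool (log2 ratio -1.22). Tomm6 had 159 and 342 FPKM (log2 ratio 1.10), which made it the most abundant of the 38 genes in csMed1-/- heart, whereas Tomm5 held that place in control. The third small subunit, Tomm7, had 65.3 and 82.8 FPKM and stayed within 2-fold. The FPKM ratio of Tomm5 to Tomm6 was 1.91 in control and 0.381 in csMed1-/- heart. Of the FPKM summed over the TOM genes, 824 in control and 774 in csMed1-/- heart, Tomm6 made up 19.3% and 44.2%, and Tomm5 made up 36.9% and 16.8%.

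**Figure D2:**
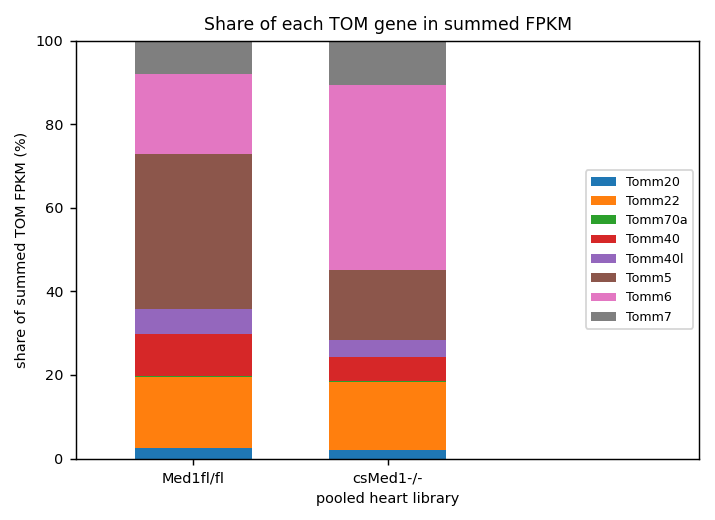
Share of each TOM gene in the summed FPKM of the complex (percent, stacked bars, 1 pooled library per bar, Tomm20l at 0 left out). The Tomm6 segment takes 19.3% of the Med1fl/fl bar and 44.2% of the csMed1-/- bar, and the Tomm5 segment 36.9% and 16.8%.

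Tomm40, which forms the channel itself, stood at 82.2 FPKM in the control pool against 44.4 FPKM in the csMed1-/- pool (log2 ratio -0.89). Its relative Tomm40l had 50.4 and 30.6 FPKM (log2 ratio -0.72), so both channel genes were lower but within 2-fold in a proportion of 1.63 to 1 in control and 1.45 to 1 in csMed1-/- heart. The receptors that first bind precursors were nearer to their control level. Tomm22, the central receptor, had 141 and 126 FPKM. Tomm20, the presequence receptor, had 19.9 and 15.5 FPKM, and Tomm70a, the receptor for carrier precursors, had 2.50 and 2.23 FPKM. Their log2 ratios lay between -0.35 and -0.16. Tomm34, a cytosolic cochaperone that is no part of the complex despite its name, had 18.8 and 31.6 FPKM (log2 ratio 0.75).

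Sequence shared with other genes bears on several of these values. For Tomm6 (chr17:47686645-47688386, minus strand, RefSeq annotation of GRCm38.p6), 81.4% of the 50-base windows of its coding transcripts occur in transcripts of other genes, above all in Gm21981. For Tomm40l, 61.8% of windows occur in Nr1i3, an overlapping gene listed at 0.374 FPKM in control against 0.0566 FPKM in the csMed1-/- pool. Tomm5 (chr4:45105209-45108113, minus strand) shares 5.39% of its windows. Gm21981 is not among the genes listed in the files, so no reads were reported for it. How the authors' counting treated reads from shared sequence is not stated, so the Tomm6 and Tomm40l values are uncertain. Smaller shares, from 20.6% to 23.9%, were found for Mtx1, Gfer and Pmpca.

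The RefSeq promoter of Tomm20 is shown because it is 1 of only 3 import gene promoters with a match to a loose motif, with 1 free base, of NRF1, a transcription factor known for nuclear genes of mitochondria. Promoters were taken as the 250 bases before the start and searched on both strands. An import gene counts as holding a motif if any of its windows does, and the 34 import genes have 37 windows. The shares of all windows and of genes tested are counted per window, so the units differ. The motif is in 3.74% of all 32851 promoter windows and in 7.79% of the 9554 windows of genes tested, and the others of the 3 are Chchd4 and an upstream start of Hspd1. None of the 34 import genes with a window held the full NRF1 motif, which is in 0.782% of all windows. Capitals mark the match in the window at chr8:126945922-126946171 (minus strand, GRCm38.p6).
Tomm20: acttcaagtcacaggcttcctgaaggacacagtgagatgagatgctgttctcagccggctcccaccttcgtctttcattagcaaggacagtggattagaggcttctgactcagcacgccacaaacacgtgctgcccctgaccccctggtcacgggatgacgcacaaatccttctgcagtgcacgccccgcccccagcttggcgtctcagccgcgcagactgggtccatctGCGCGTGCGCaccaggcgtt
A match says only that the letters are present.

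Outer membrane assembly was represented by Samm50 and the metaxins. Samm50 (chr15:84192240-84216083, plus strand), the barrel protein at the centre of the SAM complex, stood at 256 FPKM in the control pool against 115 FPKM in the csMed1-/- pool (log2 ratio -1.15). Its partners stayed within 2-fold. Mtx1 had 34.0 and 29.2 FPKM (log2 ratio -0.22), and Mtx2 had 17.9 and 11.2 FPKM (log2 ratio -0.68). Only Samm50 of the 3 tested genes was past 2-fold, and all 3 were lower in csMed1-/- heart. Of all genes tested, 18.0% were lower past 2-fold and 53.2% were lower at all.

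In the intermembrane space, 1 of 8 tested genes (12.5%) was lower by more than 2-fold and none was higher, with a median log2 ratio of -0.16. Of all genes tested, 18.0% were lower and 13.6% higher. Timm9 and Timm10 form the hexameric chaperone that escorts carrier precursors. Timm9 (chr12:71123172-71136708, minus strand) stood at 12.6 FPKM in the control pool against 4.86 FPKM in the csMed1-/- pool (log2 ratio -1.38), while Timm10 had 101 and 67.8 FPKM (log2 ratio -0.57). The FPKM ratio of Timm10 to Timm9 was therefore 7.99 in control and 13.96 in csMed1-/- heart. The other hexamer is built from Timm8 and Timm13 proteins, and its genes were close to control. Timm8b had 179 and 175 FPKM and Timm8a1 had 20.04 and 21.2 FPKM. Timm13 had 98.4 and 124 FPKM (log2 ratio 0.33). Timm22, the inner membrane channel that carrier proteins reach, had 19.5 and 16.8 FPKM. For Timm8a1, 41.0% of windows occur in Gm9797, which the files do not list, so the Timm8a1 value is uncertain.

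The files also list 3 Timm genes under older symbols, which the choice by symbol missed and which were looked up after the values were seen. RefSeq gives Fxc1 as Timm10b, a small Tim of the TIM22 complex, which stood at 66.2 FPKM in the control pool against 92.7 FPKM in the csMed1-/- pool (log2 ratio 0.49). RefSeq gives 1810026J23Rik as Timm29, a TIM22 subunit, which had 38.0 and 25.4 FPKM (log2 ratio -0.58). RefSeq gives 1700034H14Rik as Timm21, a TIM23 subunit, which had 4.32 and 0.498 FPKM (log2 ratio -3.11). Of these 3 genes Timm21 alone was past 2-fold.

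The oxidative folding pair of the intermembrane space was within 2-fold. Chchd4, the oxidoreductase that traps cysteine-rich precursors, stood at 30.9 FPKM in the control pool against 17.6 FPKM in the csMed1-/- pool (log2 ratio -0.81). Gfer, the sulfhydryl oxidase that recharges Chchd4, had 11.6 and 10.8 FPKM (log2 ratio -0.10). The promoters of Chchd4, Timm9 and Timm8b are shown because each holds a match that is scarce among the import genes. Capitals mark the loose NRF1 motif in Chchd4 (chr6:91473424-91473673, minus strand). In Timm9 (chr12:71136676-71136925, minus strand) they mark a heat shock element, 3 alternating GAA and TTC units spaced by 2 bases. In Timm8b (chr9:50603651-50603900, plus strand) they mark TCAAGGTCA, the motif of estrogen-related receptors, and CCGGAAG, a motif of ETS factors such as GABP.
Chchd4: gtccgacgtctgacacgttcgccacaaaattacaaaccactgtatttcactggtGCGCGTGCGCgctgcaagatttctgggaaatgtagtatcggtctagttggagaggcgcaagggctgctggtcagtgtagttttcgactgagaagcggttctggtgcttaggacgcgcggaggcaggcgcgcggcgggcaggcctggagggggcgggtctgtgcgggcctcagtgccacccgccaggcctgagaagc
Timm9: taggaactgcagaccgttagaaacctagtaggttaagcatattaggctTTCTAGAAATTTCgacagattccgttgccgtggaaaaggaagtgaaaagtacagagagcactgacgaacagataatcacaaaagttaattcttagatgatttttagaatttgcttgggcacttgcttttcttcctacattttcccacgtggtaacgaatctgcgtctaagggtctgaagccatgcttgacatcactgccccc
Timm8b: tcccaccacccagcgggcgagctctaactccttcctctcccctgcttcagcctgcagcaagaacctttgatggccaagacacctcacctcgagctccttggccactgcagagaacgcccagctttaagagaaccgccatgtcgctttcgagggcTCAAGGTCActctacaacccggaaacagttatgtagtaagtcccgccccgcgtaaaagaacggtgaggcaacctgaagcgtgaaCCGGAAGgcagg
Timm8b was the only 1 of the 34 import genes with a window to hold TCAAGGTCA, which is in 0.387% of all windows, and its level hardly differed between the pools.

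Within the TIM23 channel, 1 of 4 genes was lower by more than 2-fold, against 18.0% of all genes tested. Timm23 (chr14:32180166-32201891, minus strand), the pore subunit, stood at 296 FPKM in the control pool against 97.1 FPKM in the csMed1-/- pool (log2 ratio -1.61). Only 8.51% of all genes tested had a lower ratio. Timm17a, which pairs with Timm23 in the channel, had 189 and 151 FPKM (log2 ratio -0.33), and its X-linked paralog Timm17b had 24.4 and 44.2 FPKM (log2 ratio 0.86). The proportion of Timm17a to Timm17b was 7.77 to 1 in control and 3.41 to 1 in csMed1-/- heart. Timm50, the receptor that guards the channel, had 115 and 102 FPKM (log2 ratio -0.18). Timm23 thus exceeded Timm17a in control and was below it in csMed1-/- heart. For Timm23, 83.9% of windows occur in transcripts of 8 other genes, chiefly Gm10273, which the files do not list. The Timm23 value is therefore uncertain as well. The Timm23 promoter is shown for the CCGGAAG motif, in capitals on the reverse strand (chr14:32201892-32202141, minus strand).
Timm23: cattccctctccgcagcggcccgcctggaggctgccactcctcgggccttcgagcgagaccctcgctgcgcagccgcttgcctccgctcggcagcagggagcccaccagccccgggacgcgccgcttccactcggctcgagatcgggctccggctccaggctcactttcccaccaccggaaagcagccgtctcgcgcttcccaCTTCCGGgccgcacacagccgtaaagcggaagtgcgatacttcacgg
CCGGAAG was in 15 of the 34 import genes with a window (44.1%), in 6.91% of all windows and in 13.0% of the windows of genes tested. Of the 10 genes past 2-fold that have a window, 3 held it, namely Timm23, Hspd1 and Hspe1. The SP1 motif GGGCGG, not capitalised in the sequences, was in 21 of the 34 (61.8%), in 32.7% of all windows and in 58.3% of the windows of genes tested, and 5 of those 10 genes held it.

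The presequence motor had the largest share of lower genes among the roles with more than 2 genes. Of its 6 genes, 4 were lower by more than 2-fold, against 18.0% of all genes tested, and the median log2 ratio was -1.44. Hspa9, the mitochondrial Hsp70 that drives import, stood at 99.9 FPKM in the control pool against 25.01 FPKM in the csMed1-/- pool (log2 ratio -1.998), the lowest ratio of the 35 genes. Timm44, which tethers Hspa9 to the channel, had 27.3 and 7.24 FPKM (log2 ratio -1.91). Of all genes tested, 5.14% had a lower ratio than Hspa9 and 5.75% had a lower ratio than Timm44. The J-domain paralogs that stimulate Hspa9 were lower together. Dnajc19 had 46.4 and 15.2 FPKM (log2 ratio -1.61), and Dnajc15 had 166 and 68.8 FPKM (log2 ratio -1.27, and -0.99 with GC-centred ratios).

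Of the nucleotide exchange factors of the motor, Grpel1 stood near its control level and Grpel2 was lower but within 2-fold. Grpel1, which releases ADP from Hspa9, stood at 45.7 FPKM in the control pool against 43.3 FPKM in the csMed1-/- pool (log2 ratio -0.08). Its low paralog Grpel2 had 2.93 and 1.88 FPKM (log2 ratio -0.64). The FPKM ratio of Hspa9 to Grpel1 was 2.19 in control and 0.578 in csMed1-/- heart. Pam16, a J-like regulator of the same motor that the choice by symbol did not take, had 171 and 156 FPKM (log2 ratio -0.13). The motor genes lower by more than 2-fold were thus the Hsp70, its tether and its J-domain activators, with the exchange factors and Pam16 within 2-fold. Among the paralogs, Dnajc15 exceeded Dnajc19 by 3.57 times in control and 4.51 times in csMed1-/- heart, and Grpel1 exceeded Grpel2 by 15.6 and 23.0 times.

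**Figure D3:**
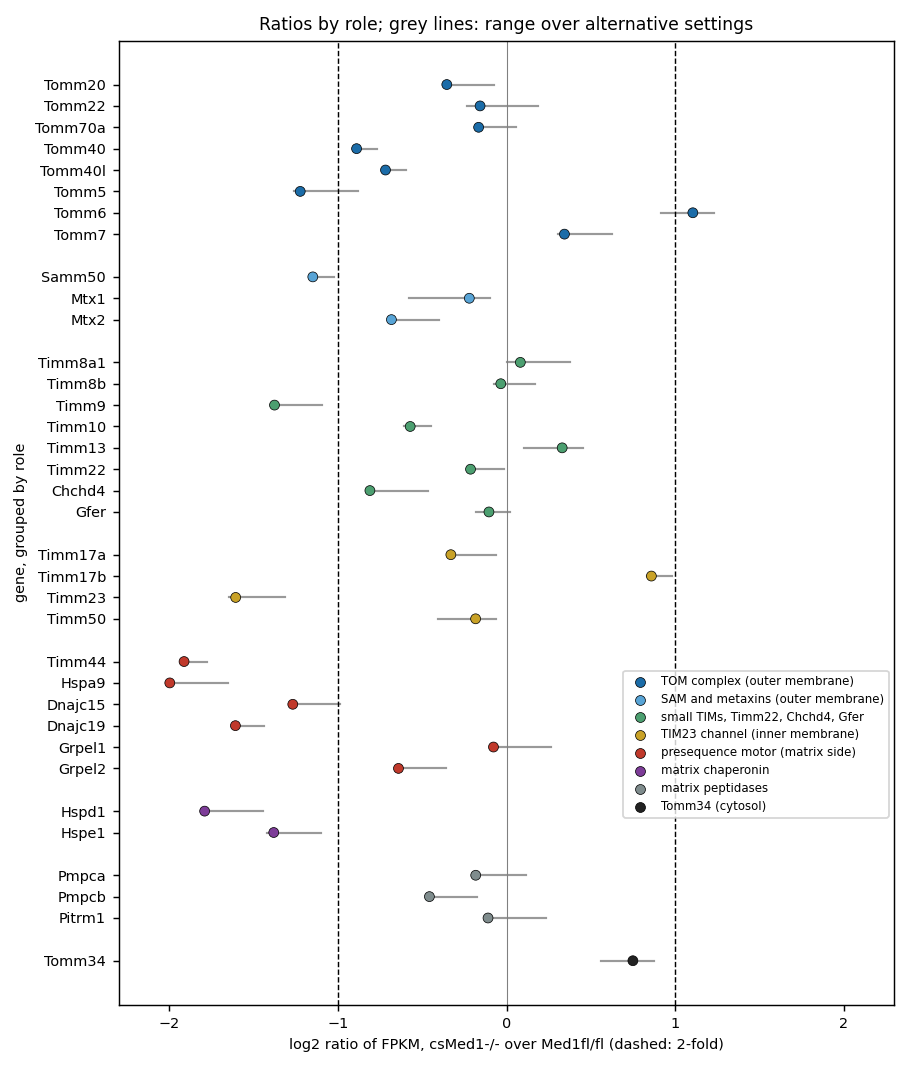
Log2 ratio of FPKM, csMed1-/- over Med1fl/fl, for the 35 genes tested, grouped and coloured by role (dashed lines at 2-fold; points are single ratios of 1 library each, and grey lines span the alternative settings and are not error bars). Timm44, Hspa9, Dnajc19 and the chaperonin genes lie left of the lower dashed line over their whole grey line, and Dnajc15, Tomm5 and Tomm6 cross a dashed line when ratios are centred by GC content.

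Both chaperonin genes were lower by more than 2-fold in csMed1-/- heart, against 18.0% of all genes tested. Hspd1 (chr1:55077833-55088243, minus strand), which encodes Hsp60, stood at 27.0 FPKM in the control pool against 7.79 FPKM in the csMed1-/- pool (log2 ratio -1.79). Hspe1 (chr1:55088148-55091317, plus strand), which encodes its lid Hsp10, had 154 and 59.1 FPKM (log2 ratio -1.38). Hspe1 exceeded Hspd1 by 5.71 times in control and by 7.58 times in csMed1-/- heart. The genes lie head to head, with 96 bases of overlap counted from the upstream start of Hspd1. The window of a downstream Hspd1 start inside the gene (chr1:55087933-55088182) shares 215 bases with the Hspe1 window (chr1:55087933-55088147). The window of the upstream Hspd1 start shares none. In the Hspe1 window (chr1:55087898-55088147, plus strand) capitals mark a run that holds the heat shock element on both strands, starting 89 and 84 bases before the start, and overlapping CCGGAAG matches on both strands.
Hspe1: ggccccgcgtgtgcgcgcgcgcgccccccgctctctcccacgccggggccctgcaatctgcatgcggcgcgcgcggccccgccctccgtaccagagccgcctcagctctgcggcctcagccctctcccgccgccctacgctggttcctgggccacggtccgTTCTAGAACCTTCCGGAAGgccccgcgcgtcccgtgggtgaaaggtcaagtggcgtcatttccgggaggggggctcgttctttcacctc
Heat shock elements are bound by the heat shock factor Hsf1 in other settings. The element was in 3 of the 34 import genes with a window (Hspd1 at its downstream start, Hspe1 and Timm9, of which the first pair share the site). It was in 0.466% of all windows and in 0.461% of the windows of genes tested. These 3 genes were lower by more than 2-fold. The share of lower genes among all genes with the element was not determined, and a link between element and ratio was not tested. The composite motif TGATGNAAT and the motif TTGCATCA, which ATF4 and CHOP type factors bind, were in none of the 34 and in 0.816% and 0.791% of all windows. For Hspd1 42.1% and for Hspe1 44.8% of 50-base windows occur in transcripts of other genes, such as the pseudogene Hspd1-ps3, which the files do not list. Both chaperonin values are therefore uncertain too.

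None of the 3 peptidase genes was past 2-fold, against 31.5% of all genes tested. Pmpca and Pmpcb encode the subunits of the processing peptidase that removes presequences. Pmpca stood at 43.2 FPKM in the control pool against 38.1 FPKM in the csMed1-/- pool (log2 ratio -0.18), and Pmpcb had 121 and 88.1 FPKM (log2 ratio -0.46). Pitrm1, which degrades the cleaved presequences, had 15.1 and 13.98 FPKM (log2 ratio -0.11). Pmpca and Pitrm1 thus stood near the median of all genes tested (-0.07), whereas only 34.3% of all genes tested had a lower ratio than Pmpcb. For Pmpca, 23.9% of windows occur in Inpp5e, which had 25.4 and 14.9 FPKM, so the Pmpca value is uncertain. Mipep, a presequence peptidase outside these 3, had a log2 ratio of -1.35.

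**Figure D4:**
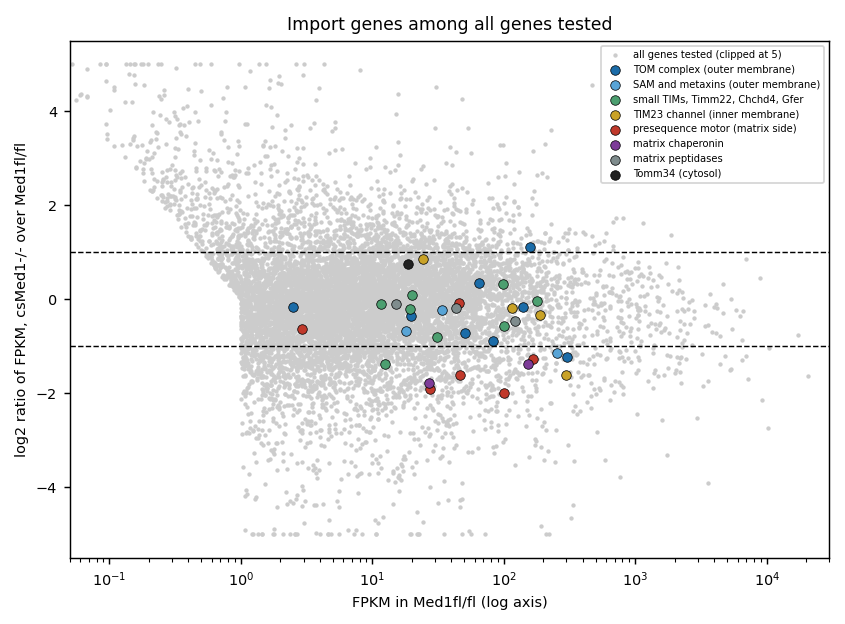
Log2 ratio against control FPKM (log axis) for all 10489 genes tested (grey, ratios beyond 5 drawn at 5) and the 35 import genes coloured by role, with dashed lines at 2-fold. Import genes run from 2.50 to 304 FPKM in control, and Hspa9 at 99.9 FPKM has the lowest ratio among them, with many grey points below it.

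Other genes of mitochondrial protein handling were listed beside these. Of 27 such genes 26 are in the files and 25 were tested, of which 11 (44%) were lower by more than 2-fold and none was higher (median log2 ratio -0.92). Over all genes tested the shares were 18.0% lower and 13.6% higher. The lowest ratios belonged to the folding factors Ppif, the matrix cyclophilin, with 378 FPKM in the control pool against 73.0 FPKM in the csMed1-/- pool (log2 ratio -2.37), and Dnaja3, a matrix J-domain protein, with 86.8 and 16.8 FPKM (log2 ratio -2.37). Hscb, the cochaperone of iron-sulfur cluster assembly, had 11.5 and 2.97 FPKM. Proteases of the inner membrane and matrix lay on both sides of 0. Oma1 had 16.7 and 4.79 FPKM (log2 ratio -1.80), and Afg3l2, a catalytic subunit of the m-AAA protease, had 32.9 and 9.99 FPKM (log2 ratio -1.72). Its partner Spg7 had 68.2 and 95.9 FPKM (log2 ratio 0.49), and the matrix protease Lonp1 had 61.2 and 82.4 FPKM (log2 ratio 0.43).

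Further genes of that list past 2-fold act in membrane insertion, cristae and maturation. Oxa1l, the insertase for proteins that enter the inner membrane from the matrix, stood at 108 FPKM in the control pool against 43.9 FPKM in the csMed1-/- pool. Mipep, the intermediate peptidase that trims some presequences a further time, had 49.7 and 19.5 FPKM (log2 ratio -1.35). Immt, the cristae organiser, had 206 and 74.3 FPKM (log2 ratio -1.47). The remaining ones were Phb2 (log2 ratio -1.18), Clpx (-1.17) and Aifm1 (-1.29), a partner of Chchd4. Htra2, an intermembrane space protease, had the highest ratio of the list, with 29.1 and 42.4 FPKM (log2 ratio 0.55).

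Mitochondrial genes of other kinds gave the following values with the same threshold, by which 18.0% of all genes tested were lower and 13.6% higher. Of 74 Mrpl and Mrps genes, which encode mitochondrial ribosomal proteins, 24 (32.4%) were lower and none was higher, with a median log2 ratio of -0.63. Of 37 Nduf genes, which encode complex I subunits, 11 (29.7%) were lower and none was higher, with a median of -0.71. The 8 motor and chaperonin genes, combined after their values were seen, had a median of -1.49, and the other 27 import genes a median of -0.21. Differences between these groups were not tested.

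**Figure D5:**
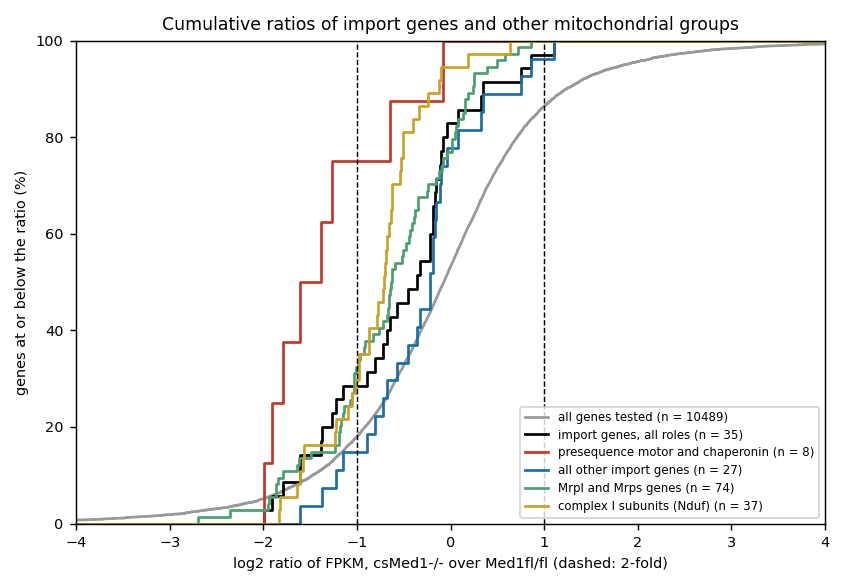
Cumulative share of genes (percent) by log2 ratio for all genes tested, the 35 import genes, their split into 8 motor and chaperonin genes and 27 others, 74 mitochondrial ribosomal protein genes and 37 complex I genes (dashed lines at 2-fold). At the lower dashed line the motor and chaperonin curve holds 6 of its 8 genes, the other import genes stand at 14.8%, and all genes at 18.0%.

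Cell type markers moved between the pools too. Their counts past 2-fold stand beside 18.0% lower and 13.6% higher over all genes tested. Of 10 cardiomyocyte markers 9 are in the files, and 4 of the 7 tested were lower by more than 2-fold and none was higher, with log2 ratios from -3.28 (Ryr2) to 0.56 (Actn2). The summed FPKM of these 7 was 56387 in control and 27228 in csMed1-/- heart. Actc1 and Mb were listed at 0 in control but at 9189 and 1040 FPKM in csMed1-/- heart, so a listed 0 need not mean absent RNA, which holds for Tomm20l and Timm8a2 as well. Fibroblast markers summed to 492 FPKM in control against 1168 FPKM in the csMed1-/- pool (3 of 7 higher, 1 lower). This sum turned on the collagen genes Col1a1 (129 and 502 FPKM) and Col1a2 (95.7 and 314 FPKM). Dcn had 114 and 96.6 FPKM, Pdgfra had 4.09 and 4.03 FPKM, and Lum had 8.04 and 3.72 FPKM. Endothelial markers summed to 404 and 263 FPKM (3 of 6 lower). Smooth muscle markers summed to 604 and 1024 FPKM (2 of 4 higher, 1 lower), which turned on Cnn1 (4.32 and 622 FPKM), since Acta2, the most abundant in control, had 573 and 310 FPKM. Macrophage markers summed to 139 and 185 FPKM (1 of 5 higher) and erythroid markers to 36.5 and 85.7 FPKM (2 of 2 higher). The adipocyte markers Adipoq, Plin1 and Lep were at 0 in control and summed to 0.0183 FPKM in csMed1-/- heart. The part of these cell types in the import gene ratios was not tested.

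Base composition also moved with the ratio. Among all tested genes with a transcript in GENCODE M21, those in the lowest-ranked 1 of 4 equal groups by transcript GC content had a median log2 ratio of -0.25 and those in the highest-ranked group a median of 0.27. Of the 35 import genes, 15 lay in the lowest group, 6 of the 10 lower genes among them, and Tomm6 lay in the highest. Those 15 had a median log2 ratio of -0.68. Of all genes in the lowest group, 20.6% were lower past 2-fold, and of all genes in the highest group, 20.7% were higher. The part of base composition in the import gene ratios was not tested. With ratios centred within 10 bins of GC content, an alternative chosen after seeing the data, 8 import genes remained lower by more than 2-fold and none was higher, against 15.9% lower and 13.6% higher of the 9470 genes with a GC value. Dnajc15 (log2 ratio -0.99), Tomm5 (-0.88) and Tomm6 (0.91) were then within 2-fold.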

How the data were processed

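Heart RNA was pooled by genotype and enriched for mRNA with oligo-dT, and 1 directional library per pool was read as 50-base single ends. Per the methods, the authors aligned reads to mm10 with TopHat 2.0.8b and derived FPKM, the deposited unit, with Cufflinks and Cuffdiff 2.1.1 from UCSC gene models. The submitters' processing notes also name STAR 2.4.0h and DESeq2, with no role given, and the library scaling is not stated. Both files hold 23424 rows, and the 412 symbols on several rows were summed, none of them an import gene.

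Ratios are plain FPKM ratios without a pseudocount, with a 2-fold threshold, for genes that neither library lists at 0 and whose higher value is at least 1 FPKM. No test between genotypes was possible with 1 library each. Members, roles, markers and related genes were chosen with earlier results of these data known. The genes named are all members, Med1, and of the related genes those past 2-fold or at the ends of the range. Pam16, Spg7, Lonp1, single markers, genes that share sequence with a member and the older symbols were added for their role or after their values were seen.

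Relative depth was read from the 44 rows at the most common ratio among 2461 rows of up to 0.15 FPKM. Positions and promoters came from RefSeq (GRCm38.p6), with 34 of 38 genes matched to a promoter, and transcripts from GENCODE M21, matched by symbol for 9470 genes tested (90.3%). Python 3.11.15, numpy 2.4.6, pandas 2.3.3 and matplotlib 3.10.9 were used, and the computation was tested on simulated data. Alternatives were pseudocounts, filters, library scalings, row choice, thresholds and member choice.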

Additional observations from a re-analysis of the deposited data

How the results depend on the processing

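The count of import genes past 2-fold, 10 lower and 1 higher, was the same with pseudocounts of 0.1 and 1, filters of 1 FPKM in both libraries or 10 FPKM in either, centring on the median, scaling to the 75th percentile, scaling without the 100 highest genes, the highest row of a symbol rescaling to equal FPKM sums and centring within bins of transcript length. Without a filter Mtx3 made it 11 lower. At 1.5-fold it was 18, with 15 lower and 3 higher (all genes 29.7% and 23.7%), and at 4-fold it was 0, with 0 lower and 0 higher (all genes 5.14% and 4.32%). Centring within bins of GC content gave 8 lower and 0 higher (all genes 15.9% and 13.6%). The median log2 ratio of import genes stayed between -0.41 and -0.23 across filters, pseudocounts, scalings, centrings and the added older symbols. It was -0.20 for Timm and Tomm genes and -0.68 for members listed by name. Rescaling to equal FPKM sums, added after seeing the data, moved the median of all genes from -0.07 to 0.05, and the import median less that of all genes remained -0.28. Gfer, Grpel1, Pitrm1, Pmpca, Timm8b, Tomm22 and Tomm70a, all within 2-fold, changed sign under 1 to 4 of the alternatives. Med1 moved to a log2 ratio of -1.63 with a pseudocount of 1. No paired analysis was possible because each genotype has 1 library, and for the same reason no replicate could be left out. Read counts were not analysed here, so the counting error of low genes such as Tomm70a and Grpel2 is unknown.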
